A study of Mus musculus with 16 samples.

Results

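Akr1c18, Pik3c2g and Thrb were followed as genes of the adrenal X-zone in mice whose macrophages had been depleted. They are 3 of the 51912 genes counted, were found by their symbols, and all 3 were among the 16654 genes that passed the filter on low counts. RNA came from both adrenal glands, pooled within each animal, of 16 C57Bl/6 J wild type mice aged 7 weeks. There were 4 groups of 4 mice, males or females given either Ab. The anti-CD115 groups received an Ab (clone AFS98) against CSF1R (CD115), the receptor on which macrophages depend, and the isotype groups received a control Ab (clone 2A3). Each mouse was given 500 µg intraperitoneally, 2 times, 2 days apart, and was killed 16 h after the last injection. The libraries held between 23196317 and 26314672 counts, each from 1 mouse. The library of male anti-CD115 mouse 1 had 22.8% mitochondrial counts, where the others had 11.8% to 15.6%, and that of male anti-CD115 mouse 4 held more counts of Akr1c18, Pik3c2g and Akr1d1 than any other male, which are described with the males. The comparison asks whether genes of the X-zone differ when macrophages have been removed, in the females, which keep this zone, with the males as background. The presence of the zone was not recorded for each mouse, and neither was parity.

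The X-zone is the innermost layer of the mouse adrenal cortex, next to the medulla, and derives from the fetal cortex. It regresses in males around puberty and in females during the first pregnancy. Akr1c18 encodes an aldo-keto reductase that inactivates progesterone and is widely used as the marker of this layer. Pik3c2g encodes a class II phosphoinositide 3-kinase, and Thrb encodes the beta receptor for thyroid hormone, a transcription factor through which the hormone is known to affect the X-zone.

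In the gene models of the counts (GRCm38), Akr1c18 (ENSMUSG00000021214) lies at chr13:4132615-4150654 on the minus strand, with 1207 exonic bases. Pik3c2g (ENSMUSG00000030228) lies at chr6:139587221-139969284 on the plus strand, with 12647 exonic bases. Thrb (ENSMUSG00000021779) lies at chr14:17660960-18038088 on the plus strand, with 6555 exonic bases. The 2 genes that overlap Pik3c2g on its strand had 0 counts, and no gene overlapped the other members on their strand. Of the stretches of 50 bases in the longest Akr1c18 transcript, 0.608% also occurred in another gene, which was Akr1cl, and 0.26% of those of Thrb and 0% of those of Pik3c2g did. No stretch of 100 bases was shared for any of the 3 genes. Only the longest transcript of each gene was searched, which for Pik3c2g has 4407 bases, fewer than its 12647 exonic bases.

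The 250 bases before the first RefSeq start of each gene (GRCm38.p6) are shown to describe base composition, whose relation to expression was not tested. Each runs 5′ to 3′ on the gene's own strand, and capitals mark AGGTCA, the half-site to which nuclear receptors such as the thyroid hormone receptor bind.
Akr1c18, minus strand, chr13:4150647-4150896: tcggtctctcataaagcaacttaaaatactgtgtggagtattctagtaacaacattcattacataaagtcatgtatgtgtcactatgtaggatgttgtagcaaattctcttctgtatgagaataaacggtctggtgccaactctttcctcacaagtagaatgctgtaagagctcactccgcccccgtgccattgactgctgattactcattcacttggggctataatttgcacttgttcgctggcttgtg
Pik3c2g, plus strand, chr6:139613822-139614071: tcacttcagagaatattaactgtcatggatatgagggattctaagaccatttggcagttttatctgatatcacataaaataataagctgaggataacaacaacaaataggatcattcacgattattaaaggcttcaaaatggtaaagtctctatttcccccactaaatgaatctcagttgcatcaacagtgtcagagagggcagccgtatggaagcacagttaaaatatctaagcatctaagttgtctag
Thrb, plus strand, chr14:17660710-17660959: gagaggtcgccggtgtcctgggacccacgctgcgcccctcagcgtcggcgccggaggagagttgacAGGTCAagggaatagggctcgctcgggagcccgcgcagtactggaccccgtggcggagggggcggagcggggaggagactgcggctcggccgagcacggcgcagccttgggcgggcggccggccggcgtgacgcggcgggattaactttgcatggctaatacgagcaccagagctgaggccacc
The Akr1c18 window had 41.6% G or C and 5 CpG dinucleotides, and the Pik3c2g window had 36% and 2. The Thrb window had 71.6% and 30, where the median of the 32851 windows in the table was 52.4% and 6. AGGTCA or its reverse complement TGACCT occurred in the Thrb window but in neither of the others, 184 bases before the start, and in 14.02% of all windows. RefSeq lists a second start for Pik3c2g and for Thrb, neither with this motif in its window, and the gene model of the counts for Pik3c2g begins 26851 bases before its first RefSeq start. Of the Akr1c18 window, 8 bases lie in the first exon of the gene model of the counts.

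Without depletion, the 3 genes were more abundant in females than in males, Akr1c18 and Pik3c2g being near absent from males. In the female isotype mice Akr1c18 stood at 736, 1156, 1111 and 875 CPM (counts scaled to library size, with normalisation between libraries), whereas the male isotype mice held 0, 2, 0 and 4 counts. The ratio of the summed levels was 16926, with a counting interval of 7776 to 46124. Pik3c2g held 0, 0, 0 and 1 counts in the male isotype mice against 28.9, 38.7, 37.1 and 29.0 CPM in the females, a ratio of 3509 with a counting interval of 629 to 138641. These 95% Poisson intervals cover counting error only. Thrb was expressed in every male, at 28.7, 20.9, 20.9 and 20.4 CPM, against 70.5, 78.4, 57.5 and 79.4 CPM in females, which was 3.14-fold higher in females (log2 1.65 ± 0.13 SE). Thrb was thus expressed in glands of both sexes. All 3 were among the 8.54% of tested genes called higher in female isotype mice by edgeR's quasi-likelihood test (adjusted p = 5.82e-07 for Akr1c18, 1.67e-07 for Pik3c2g and 2.34e-08 for Thrb). Per kilobase of exon, Akr1c18 was the most abundant in female isotype mice, at 803 ± 165 FPKM (SD, n = 4), followed by Thrb at 10.9 ± 1.54 FPKM and Pik3c2g at 2.64 ± 0.411 FPKM. The Pik3c2g value divides by 12647 exonic bases, where its longest transcript has 4407, so that by transcript length it would be higher. For Thrb these lengths were closer, at 6555 and 6200 bases. In a whole gland, fewer cells of a zone and less RNA per cell cannot be told apart.

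**Figure D1:**
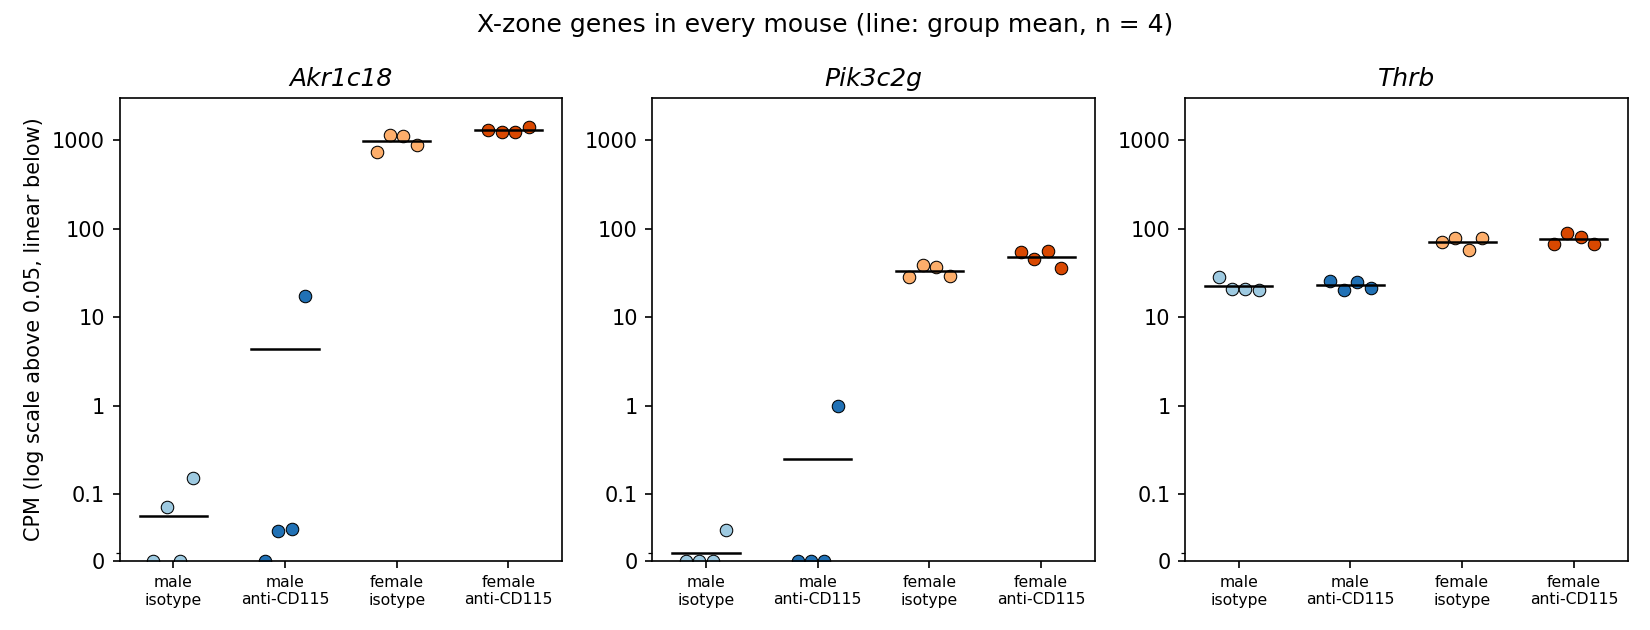
CPM of the 3 X-zone genes in each of the 16 mice by group (points; the scale is logarithmic above 0.05 and linear below), with group means as lines (n = 4). Akr1c18 and Pik3c2g sit at or near 0 in 7 of the 8 males, with male anti-CD115 mouse 4 at 17.4 and 1.00 CPM, and Thrb lies between 20.3 and 28.7 CPM in all 8 males.

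In females, depletion of macrophages left Akr1c18 and Pik3c2g at higher mean levels and Thrb at nearly the same level, and none of the 3 genes passed the test. The female comparison called 1.87% of all tested genes, with 0.06% higher and 1.81% lower after anti-CD115. The marker of the zone, Akr1c18, was at 1317, 1252, 1236 and 1415 CPM in the female anti-CD115 mice. All 4 lay above all 4 isotype mice, among which mice 1 and 4 were low (736 and 875 CPM) and mice 2 and 3 were nearer to the treated group. The means were 970 ± 199 CPM (SD, n = 4) with isotype and 1305 ± 81.1 CPM with anti-CD115, a ratio of 1.35. Groups that did not overlap, with the treated mice higher, were seen for 3.37% of all tested genes. In the fit over all 16 mice the log2 fold change of Akr1c18 was 0.43 ± 0.62 (SE) with a 95% interval of -0.87 to 1.73 (edgeR, adjusted p = 0.884). The exact two-sided permutation test over the 8 females gave p = 0.0286, which is the smallest p that 4 against 4 mice can give and is not adjusted for the number of genes.

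Pik3c2g, the lipid kinase, was at 54.4, 46.1, 56.6 and 36.3 CPM in the female anti-CD115 mice. Mice 1, 2 and 3 of this group lay above every isotype mouse, and mouse 4 lay just below isotype mice 2 and 3, so the groups overlapped. The means were 33.4 ± 5.20 CPM (SD, n = 4) with isotype and 48.4 ± 9.21 CPM with anti-CD115, a ratio of 1.45. The log2 fold change was 0.53 ± 0.27 (SE), with a 95% interval of -0.06 to 1.13 (edgeR, adjusted p = 0.589). The exact permutation test gave p = 0.0857.

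Thrb, the hormone receptor, was at 68.2, 88.9, 81.4 and 68.0 CPM after anti-CD115, and the 2 groups of females overlapped. The means were 71.5 ± 10.1 CPM (SD, n = 4) with isotype and 76.6 ± 10.3 CPM with anti-CD115. The log2 fold change was 0.10 ± 0.13 (SE), and its 95% interval ran from -0.16 to 0.37 (edgeR, adjusted p = 0.859). The exact permutation test gave p = 0.514.

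The isotype mice had the same order for Akr1c18 and Pik3c2g, with mice 2 and 3 above mice 4 and 1. For Thrb the order differed, with mouse 4 highest and mouse 3 lowest. Among the treated mice, mouse 4 was highest for Akr1c18, lowest for Pik3c2g and, with mouse 1, low for Thrb.

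**Figure D2:**
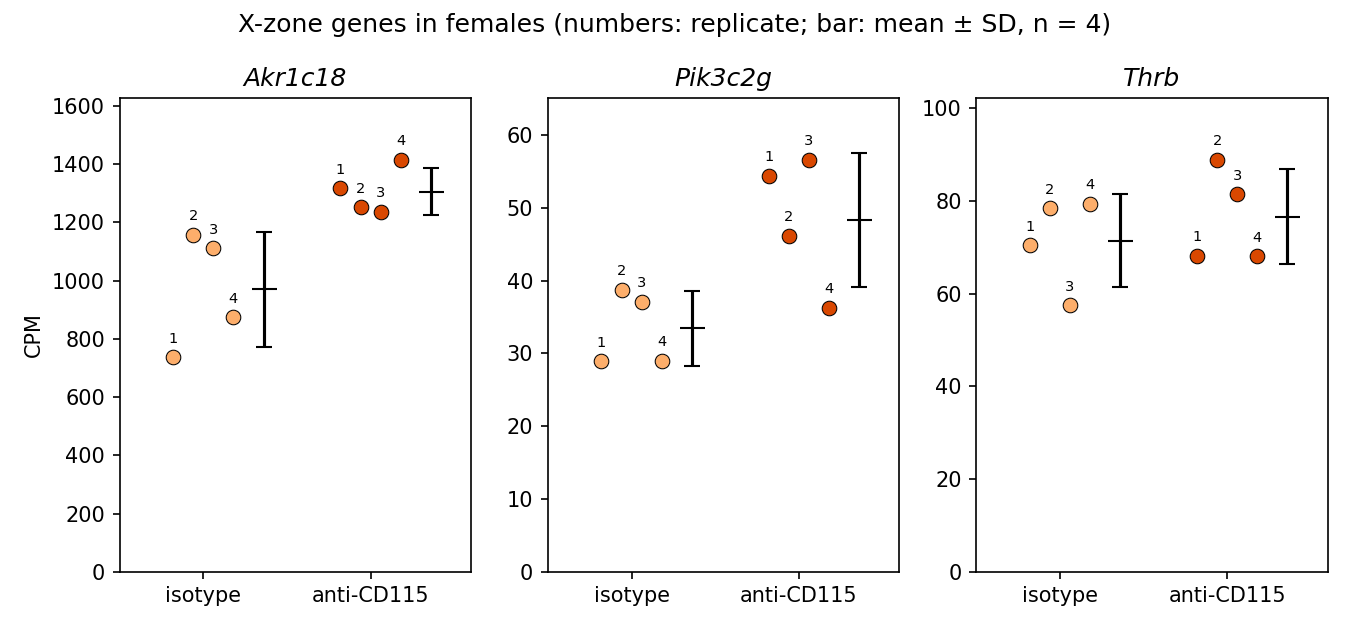
CPM of the 3 genes in the 8 females on linear axes from 0, with replicate numbers beside the points and the mean ± SD (n = 4) as bars. The groups do not overlap for Akr1c18 (highest isotype mouse 1156 CPM, lowest treated mouse 1236 CPM) and overlap for Pik3c2g and Thrb.

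The precision of the female comparison depended on which mice shared the fit. A fit without male anti-CD115 mouse 4 was not planned and was chosen after seeing the data. In it the log2 fold change of Akr1c18 stayed at 0.43 while its SE went from 0.62 to 0.14. The 95% interval was then 0.14 to 0.72 (edgeR, adjusted p = 0.189). For Pik3c2g the SE went from 0.27 to 0.15, and the interval was 0.22 to 0.85 (adjusted p = 0.123). In a fit of the 8 females alone the log2 fold changes were 0.42 ± 0.12 (SE) for Akr1c18 and 0.52 ± 0.14 for Pik3c2g, with adjusted p = 0.135 and 0.0971 (edgeR), so that neither gene was called. The unadjusted p in that fit was 0.00419 for Akr1c18 and 0.00257 for Pik3c2g, in the edgeR model fitted across all genes. For Thrb the SE was 0.13 with and without that mouse.

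**Figure D3:**
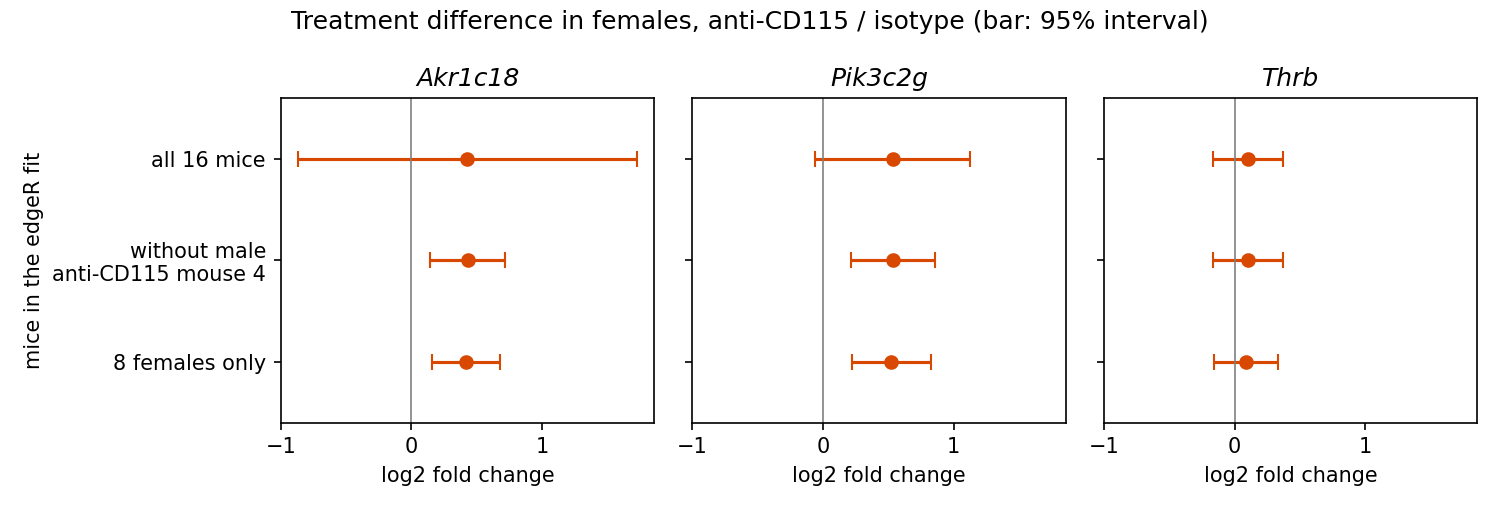
Log2 fold change of anti-CD115 over isotype in females with its 95% interval, for each gene, from edgeR fits over all 16 mice, without male anti-CD115 mouse 4, and over the 8 females only. The fit without that mouse was chosen after seeing the data. The estimates stay in place across fits, whereas the interval of Akr1c18 narrows from -0.87 to 1.73 to 0.15 to 0.68.

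In the males, which served as background, 3 of the 4 treated mice held as little of the X-zone transcripts as the isotype mice. The counts of Akr1c18 in the male anti-CD115 mice were 0, 1, 1 and 469, and those of Pik3c2g were 0, 0, 0 and 27. Mouse 4 thus stood alone in its group, at 17.4 CPM of Akr1c18 and 1.00 CPM of Pik3c2g. Thrb was at 26.0, 20.3, 25.3 and 21.7 CPM and overlapped with the male isotype mice, with a log2 fold change of 0.04 ± 0.13 (SE; edgeR, adjusted p = 0.906). None of the 3 genes was among the 4.16% of tested genes called in males (edgeR, adjusted p = 0.0624 for Akr1c18 and 0.236 for Pik3c2g), and the exact permutation test over the 8 males gave p = 0.714 for Akr1c18 and p = 1 for Pik3c2g. The fitted log2 fold change of Akr1c18 in males was 6.21 and was -0.92 without mouse 4.

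Counts of other genes that are low in males were also read in male anti-CD115 mouse 4. Genes at 5 CPM or more in female isotype mice and below 1% of that level in every male isotype mouse were taken, a choice made after the counts of Akr1c18 and Pik3c2g in this mouse were seen. The choice fixes the low values of the male isotype mice, so mouse 4 is set beside the other 3 treated males only, as a description. Besides Akr1c18 and Pik3c2g it gave 6 genes. Akr1d1, the steroid 5β-reductase, had 568 counts in mouse 4 and 4, 2 and 3 counts in treated mice 1 to 3. Cyp2f2, a cytochrome P450, had 586 counts in mouse 4 and 152, 52 and 59 in the others, so that it was present in all treated males. Xist, which is transcribed from the inactive X chromosome, had 11 counts in mouse 4 and 0 in each of the other 3. The remaining genes had too few counts to separate the mice, with 2 counts of Gm13010 and 3 of Gm7463 in mouse 4 and 0 in the others, and 2 counts of Fa2h in mouse 4 against 0, 0 and 3. Leaving out mouse 4 moved the fitted log2 fold change of Pik3c2g in males from 4.27 to -1.56 and that of Thrb from 0.04 to 0.07, and edgeR then called 601 genes in males in place of 692. The source of these counts in mouse 4 was not tested.

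**Figure D4:**
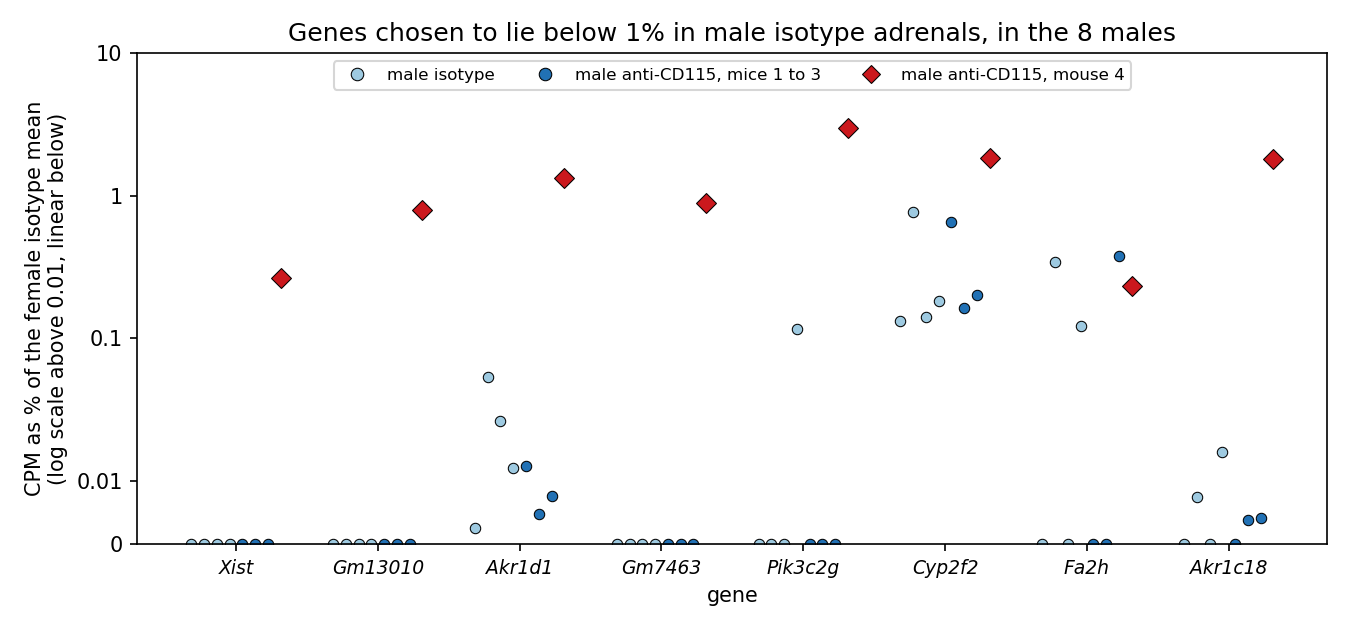
CPM in each of the 8 males as a percentage of the female isotype mean (logarithmic above 0.01, linear below) for 8 genes chosen to lie below 1% in every male isotype mouse. Male anti-CD115 mouse 4 (red diamonds) lies at 0.233% to 3.00%, and above the other 3 treated males for each gene but Fa2h. Akr1c18 and Pik3c2g in this mouse prompted the choice of genes. Gm13010, Gm7463 and Fa2h had at most 3 counts in it, too few to separate the mice.

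The treatment effect was not shown to differ between the sexes for any of the 3 genes. The difference of the log2 fold changes, females minus males, was 0.07 ± 0.19 (SE) for Thrb (edgeR, adjusted p = 0.933). For Akr1c18 it was -5.78 (adjusted p = 0.633) with male mouse 4 and 1.35 without it, and for Pik3c2g -3.74 (adjusted p = 0.672) and 2.09. The test called 0% of all tested genes, with 1261 at an unadjusted p under 0.05, and DESeq2 called 1 gene.

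Genes near the members in family or pathway were read from lists. Of the aldo-keto reductases, enzymes that reduce steroids and aldehydes, 13 of 17 were tested and 0 were called in females, with a median log2 fold change of 0.11 where the median over all tested genes was 0.0083. Akr1cl, which shared stretches of 50 bases with Akr1c18, was at 1030 ± 60.8 CPM (SD, n = 4) with isotype and 1031 ± 18.3 CPM with anti-CD115. Akr1c13, another member of the same subfamily, was at 21.5 ± 2.14 and 22.7 ± 3.84 CPM. Akr1d1 was, like Akr1c18, near absent from most males, and its female means of 1577 ± 270 and 1636 ± 264 CPM (SD, n = 4) differed by less than the spread between mice. Akr1b7, the most abundant of the family, was at 1995 ± 475 and 2225 ± 1015 CPM.

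Enzymes and receptors of progestin and androgen turnover gave 0 calls among 18 genes tested, with a median of 0.14. Pgrmc1, which binds haem and progesterone, was at 484 ± 38.8 CPM with isotype and 543 ± 31.7 CPM with anti-CD115 (SD, n = 4; log2 fold change 0.17, edgeR adjusted p = 0.615). Hsd17b12, which acts in fatty acid elongation, was at 124 ± 2.75 and 134 ± 13.8 CPM. No gene of the list passed the test in females.

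Of the phosphoinositide 3-kinase family and its phosphatases 17 genes were tested in females, and 2 were called, both lower after anti-CD115. Of all tested genes 1.81% were called lower in females. They were Pik3cg and Pik3cd, catalytic subunits found mainly in leukocytes, with log2 fold changes of -1.24 ± 0.21 and -1.08 ± 0.17 (SE; edgeR, adjusted p = 0.000879 and 0.000365). The median of the list was -0.07. Subunits of the class I enzyme that most cells express did not pass the test, with Pik3ca at 72.9 ± 4.09 and 77.2 ± 5.91 CPM and the regulatory Pik3r1 at 108 ± 19.2 and 97.4 ± 4.79 CPM (SD, n = 4). Pik3c2g had the highest log2 fold change among these 17 genes and was not called.

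Of 23 tested genes of thyroid hormone transport, activation and response, 0 were called, with a median of 0.03. Thra, the alpha receptor, was at 121 ± 12.4 CPM with isotype and 121 ± 2.22 CPM with anti-CD115 (SD, n = 4). The co-repressor Ncor1, which binds unliganded receptor, was at 235 ± 15.4 CPM with isotype and 218 ± 15.1 CPM with anti-CD115. Thrsp, a target of the hormone in lipid-forming cells, was at 100 ± 46.8 and 73.9 ± 15.8 CPM.

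Of 14 tested receptors and regulators through which sex hormones, prolactin and activin act on the cortex, 0 were called, with a median of -0.06. Prlr, the prolactin receptor, was at 400 ± 9.64 and 410 ± 44.8 CPM (SD, n = 4). Nr5a1, the transcription factor that defines steroidogenic cells, was at 1005 ± 138 and 1083 ± 115 CPM.

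The glands showed the markers of cortex and medulla in every mouse, and macrophage genes were lower in females after anti-CD115. Of 17 macrophage genes 16 were called lower, where 1.81% of all tested genes were, with a median log2 fold change of -2.76. Their summed level fell from 1236 ± 226 to 306 ± 102 CPM (SD, n = 4), with Cd74 the most abundant. Csf1r, the receptor that the Ab binds, was at 50.7, 57.0, 43.1 and 41.5 CPM with isotype and at 10.03, 4.97, 6.32 and 6.15 CPM with anti-CD115. Mertk, a receptor for apoptotic cells, was the exception (-0.50, edgeR adjusted p = 0.0553).

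Of the cortical zones, 0 of 8 genes of the zona glomerulosa and 0 of 7 of the zona fasciculata were called in females, with medians of -0.06 and 0.16. Cyp11b2, the aldosterone synthase, was at 194 ± 55.1 and 95.1 ± 19.2 CPM (SD, n = 4; log2 fold change -1.02, edgeR adjusted p = 0.0948). Cyp11b1, which makes corticosterone, was at 7942 ± 209 and 7722 ± 553 CPM. Of 22 genes of steroid synthesis 0 were called, with a median of 0.11. Of 7 genes of the sexually dimorphic cortex 0 were called, with a median of 0.05. Among them Cyp2f2, a cytochrome P450, was at 1176 ± 246 and 1258 ± 213 CPM in females. In males its means were lower, at 3.61 CPM with isotype and 8.42 CPM with anti-CD115.

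The medulla adjoins the X-zone, and its markers, like those of the zona glomerulosa, were lowest in the isotype females that were lowest for Akr1c18. The 12 medullary genes had a summed level of 6366, 11062, 8935 and 6845 CPM in isotype mice 1 to 4, so that the mice lowest for Akr1c18 were also lowest for the medulla. After anti-CD115 they summed to 10196, 8855, 8365 and 9215 CPM, with Chgb the most abundant over all mice. None of the 12 was called in females, and the median was 0.16, with Chga at 3063 ± 869 and 3394 ± 318 CPM (SD, n = 4). The part of this shift in the values of Akr1c18 was not tested. Genes of the zona glomerulosa summed to 1980, 2303, 2420 and 1731 CPM in isotype mice 1 to 4, also lowest in mice 1 and 4. Dab2 was the most abundant of them over all mice. After anti-CD115 this list did not follow Akr1c18, at 2030, 1554, 2230 and 1945 CPM. It was highest in mouse 3, the lowest of that group for Akr1c18. Genes of the zona fasciculata differed in isotype mice 1 to 4, at 21477.5, 23305.3, 22707.3 and 23389.1 CPM, with mouse 4 highest. Capsule (0 of 9 called, median -0.13), endothelial (0 of 8, -0.16) and adipocyte genes (0 of 8, -0.27) had medians below 0.

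Since the X-zone is a layer that regresses, genes of cell death and of proliferation were also listed. Of 18 tested apoptosis genes, 1 was called in females, Bcl2l11, which encodes the pro-apoptotic BIM and is expressed in many cell types. It was at 20.6, 19.4, 20.1 and 17.5 CPM with isotype and at 36.0, 19.6, 36.0 and 33.0 CPM with anti-CD115, so that mouse 2 of the treated group stayed among the isotype mice. Its log2 fold change was 0.68 ± 0.16 (SE; edgeR, adjusted p = 0.0280). Over all tested genes 0.06% were called higher in females. Bcl2l11 was not particular to glands with an X-zone, since its male means lay above both female means. They were 42.9 ± 7.02 CPM with isotype and 49.1 ± 6.19 CPM with anti-CD115 (SD, n = 4). In females the anti-apoptotic Mcl1 was at 242 ± 13.4 and 246 ± 32.9 CPM (SD, n = 4), and the list median was -0.03. Of 10 proliferation genes 0 were called, and 8 had a log2 fold change above 0, with a median of 0.38 and a range of -0.01 (Mki67) to 0.70 (Cdk1). Their summed level was 158 ± 17.4 CPM with isotype and 181 ± 37.0 CPM with anti-CD115 (SD, n = 4), and the groups overlapped. Mcm2, the most abundant, was at 55.7 ± 4.57 and 61.9 ± 5.85 CPM.

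**Figure D5:**
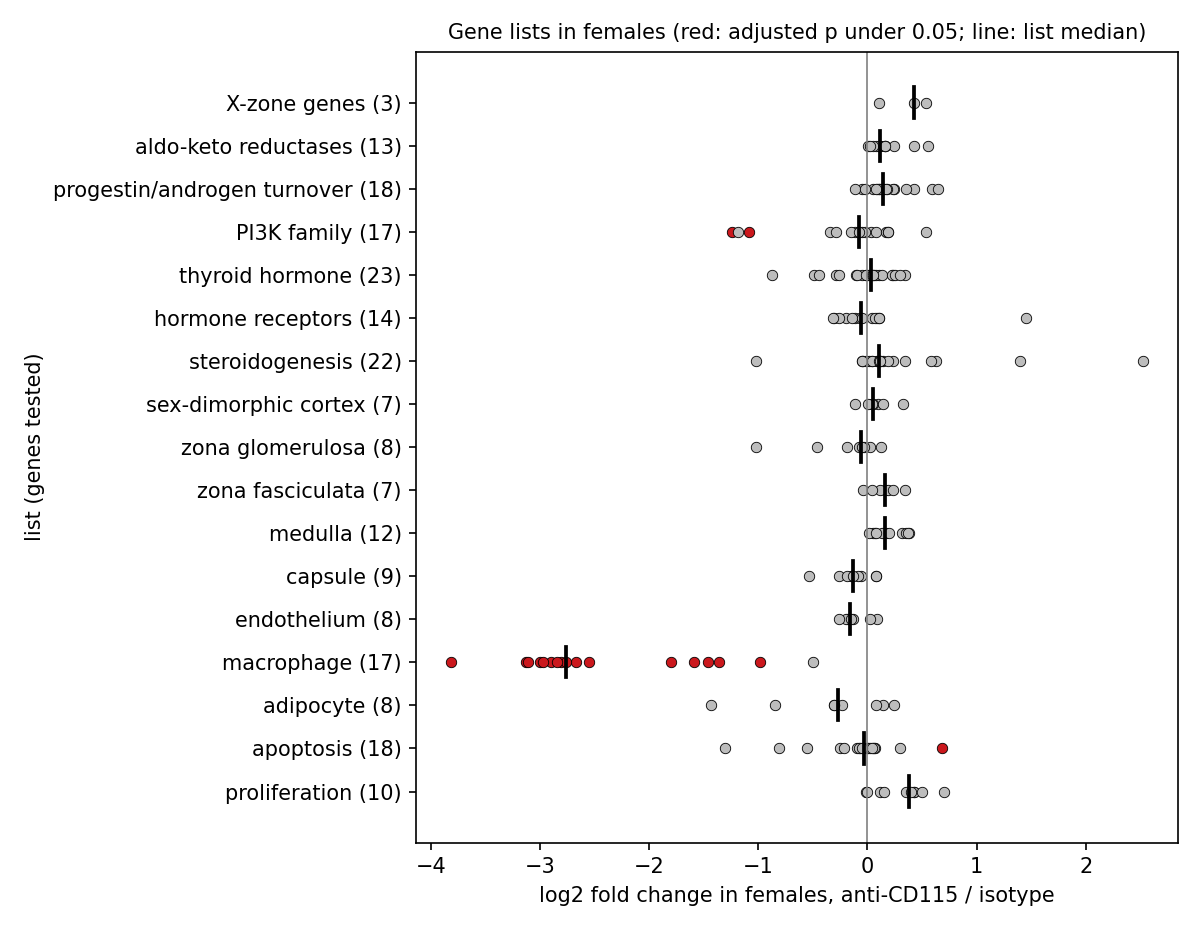
Log2 fold change in females of every tested gene of each list (points, red where the edgeR adjusted p is under 0.05), with list medians as black lines and the number tested in parentheses. Macrophage genes have a median of -2.76, and the X-zone genes lie between 0.10 and 0.53 with none called.

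Across the 16 mice the genes most like Akr1c18 and Pik3c2g followed sex. By the Pearson correlation of log2 CPM among 12937 genes, Akr1d1 was closest to both, with r = 0.993 and r = 0.992 (n = 16). Next to Akr1c18 came Cyp2f2, Frzb, Xist and Phldb2, and next to Pik3c2g came Frzb, Nrep, 4930486L24Rik and Cyp2f2. Frzb, a secreted inhibitor of Wnt signalling, was at 476 ± 58.8 CPM with isotype and 596 ± 55.4 CPM with anti-CD115 in females (SD, n = 4; edgeR adjusted p = 0.791). Thrb was most like Pde8b, a cyclic AMP phosphodiesterase of the adrenal cortex (r = 0.988), followed by Ivd, Hmgcs1, Prr16 and Cd1d1. After each group's mean was subtracted, Akr1d1 was still closest to Akr1c18 and to Pik3c2g (r = 0.914 and r = 0.901), and Aen was closest to Thrb (r = 0.864). Without male anti-CD115 mouse 4, a choice made after seeing the data, these 3 coefficients were 0.14, 0.0174 and 0.869 (n = 15), so that those of Akr1d1 rested on that mouse. Within the 8 females they were -0.0598, 0.626 and 0.844. The coefficients describe mice that share groups and libraries.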

How the data were processed

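Both adrenals of each of 16 mice gave 1 library. The authors aligned paired reads of stranded libraries with HISAT2 2.2.1 and deposited raw counts of fragments per gene, made with featureCounts 2.0.1 on the reverse strand of GRCm38 gene models. Groups come from the sample titles, which mention no cold exposure, although the treatment protocol also describes one. In R 4.3.3, low counts were filtered with edgeR 4.0.16 (filterByExpr, minimum count 10), TMM factors were computed, and the 4 groups were compared in a robust quasi-likelihood fit over all mice. Tests were two-sided, with Benjamini-Hochberg adjustment over the 16654 genes and a threshold of 0.05. Exact permutation tests used log2 CPM with a prior count of 2, and FPKM divides CPM by exonic length. At these depths 3 counts equal at most 0.151 normalised CPM. The members and lists were chosen with earlier results of these data known. The genes named were the members, called list genes, some of the more abundant of each list, relatives of Akr1c18 and those most correlated with a member. Mertk, Mki67 and Cdk1 were named for their values, as the macrophage gene not called and as the ends of a range. The fit was also run on simulated counts with the same spread for every gene, equal means in both sexes and no outlying mouse. Such a run does not cover a gene like Akr1c18, near absent from males with an outlying male. Other scalings, filters, tools (DESeq2 1.42.0) and sets of mice were tried. Library numbers follow the treatment, so their order and the treatment cannot be told apart.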

Additional observations from a re-analysis of the deposited data

Results flagged for a closer look

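Values that stood far from the other 3 mice of their group, by Dixon's criterion, were found 4 times among the 12 groups examined. Chance flags about 1 in 20 groups of continuous values, a rate that does not hold for Akr1c18 and Pik3c2g in males, where most counts were 0 or 1. Akr1c18 was at 17.4 CPM in male anti-CD115 mouse 4. Pik3c2g was at 1.00 CPM in the same mouse, and at 0.0388 CPM in male isotype mouse 4, which is 1 count. Thrb was at 28.7 CPM in male isotype mouse 1, above the other 3 mice of that group.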

How the results depend on the processing

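In females none of the 3 genes was called under any of the alternatives that gave a value (15 for Akr1c18, 16 for Pik3c2g, 17 for Thrb). The adjusted p ranged from 0.135 to 0.975 for Akr1c18, from 0.0971 to 0.952 for Pik3c2g and from 0.734 to 0.989 for Thrb, with a positive log2 fold change throughout. The genes called in females numbered 311, and 183 with at least 10 counts in every mouse, where fewer genes were tested and Akr1c18 and Pik3c2g dropped out. DESeq2 gave no adjusted p for Akr1c18. In males 692 genes were called, 319 in a fit of males only, 1169 by DESeq2 and 367 to 1053 with 1 mouse left out. The difference between the sexes called 0 genes, 1 by DESeq2 and 0 to 1 with 1 mouse left out.
With 1 mouse left out in turn, the log2 fold change in males ran from -0.92 to 7.25 for Akr1c18, from -1.56 to 5.83 for Pik3c2g and from -0.027 to 0.17 for Thrb. Akr1c18 passed the threshold without male anti-CD115 mouse 1, 2 or 3 (lowest adjusted p 0.0232) and turned without mouse 4. The difference between the sexes ran from -6.82 to 1.35 for Akr1c18, -5.30 to 2.09 for Pik3c2g and -0.065 to 0.13 for Thrb. Mice with the same number did not deviate together (correlations of -0.127 to 0.0974 in females). With the replicate block the log2 fold change in females was 0.40 for Akr1c18, 0.53 for Pik3c2g and 0.10 for Thrb, and 282 genes were called. Differences in Akr1c18 and Pik3c2g between groups of males are limited by counts of 0 to 4 in 7 of 8 mice.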
